A study of Sus scrofa with 4 samples.

Results

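The swine leukocyte antigen (SLA) complex, the major histocompatibility complex of the pig, was examined as a set of open chromatin regions on chromosome 7. Peaks of 4 libraries were merged where they overlapped by at least 1 bp, and the merged regions that lay at chr7:22000000-26000000 of the Sscrofa11.1 assembly were kept. This gave 341 regions of 121788 in the whole series. No region crossed either bound. The first began at 22002599 and the last ended at 25929930, and the nearest regions left out ended at 21981717 and began at 26001094.

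The data were ATAC-seq peak lists, an assay that inserts adapters into accessible DNA with the Tn5 transposase, from serum-starved porcine fetal fibroblasts (PFFs) derived from skin. The cells of 2 libraries over-expressed BRG1 from the vector pTK-642-BRG1 (BRG1 1 and BRG1 4), and those of the other 2 were wild type and carried pTK-642 alone (control 1 and control 4). BRG1 is an ATPase of the SWI/SNF chromatin remodelling complexes. The labels give no promoter for the transgene, no animal ages and no word on whether both libraries of a group are separate cultures, so p-values measure only the spread between these libraries, which may be technical.

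Class I molecules display peptides from inside the cell on almost every nucleated cell, after the immunoproteasome cuts them and the TAP transporter moves them into the endoplasmic reticulum. Class II molecules display peptides from taken-up material and are made mainly by professional antigen-presenting cells, although interferon gamma can induce them in fibroblasts through the activator CIITA. Class III genes lie between them in the complex and encode complement components, tumour necrosis factor cytokines and many housekeeping proteins, and in the pig the centromere separates class III from class II.

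The 4 lists held 96367 peaks in BRG1 1 and 90851 in BRG1 4, against 107475 in control 1 and 105954 in control 4. Absolute read depth was unknown. The lowest background that the peak caller used, solved from each peak's fold and p-value, was 81.2% and 92.6% of that of control 1 in BRG1 1 and BRG1 4, and 93.5% in control 4. BRG1 4 stood apart by its broad peaks, whose median was 541 bp wide, against 404 bp in BRG1 1, 403 bp in control 1 and 396 bp in control 4. Of 9 fibroblast marker genes matched, 8 had a peak within 1 kb of a gene end in all 4 libraries, against 68.2% of all protein-coding genes. Of 10 markers of antigen-presenting and lymphoid cells, 2 did (SPI1 and CD3E) and 6 had none in any library, among them PTPRC and CD74, against 25.8% of all protein-coding genes with none. Among endothelial markers 1 of 4 was open in all 4 libraries (KDR), and among keratinocyte markers 0 of 3. The part of other cell types in the calls below was not tested.

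Peaks lay closer together in the SLA complex than on the rest of the chromosomes in every library. The density was 74.5 and 68.0 peaks per Mb in BRG1 1 and BRG1 4 and 78.0 and 77.0 peaks per Mb in control 1 and control 4. On the rest of the placed chromosomes it was 38.9 and 36.7 peaks per Mb in the BRG1 libraries, against 43.4 and 42.8 in the control libraries. The ratio of the locus to the rest was 1.91 and 1.85 in the BRG1 libraries and 1.80 in both control libraries, with a mean of 1.84 ± 0.0552 (SD, n = 4). It was above 1 in 4 of 4 libraries, and the two-sided exact sign-flip test gave p = 0.125, the smallest that 4 libraries allow. Gene density differed more: the locus held 163 protein-coding gene models, 40.75 per Mb, against 7.97 per Mb in the rest, a ratio of 5.11.

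**Figure D1:**
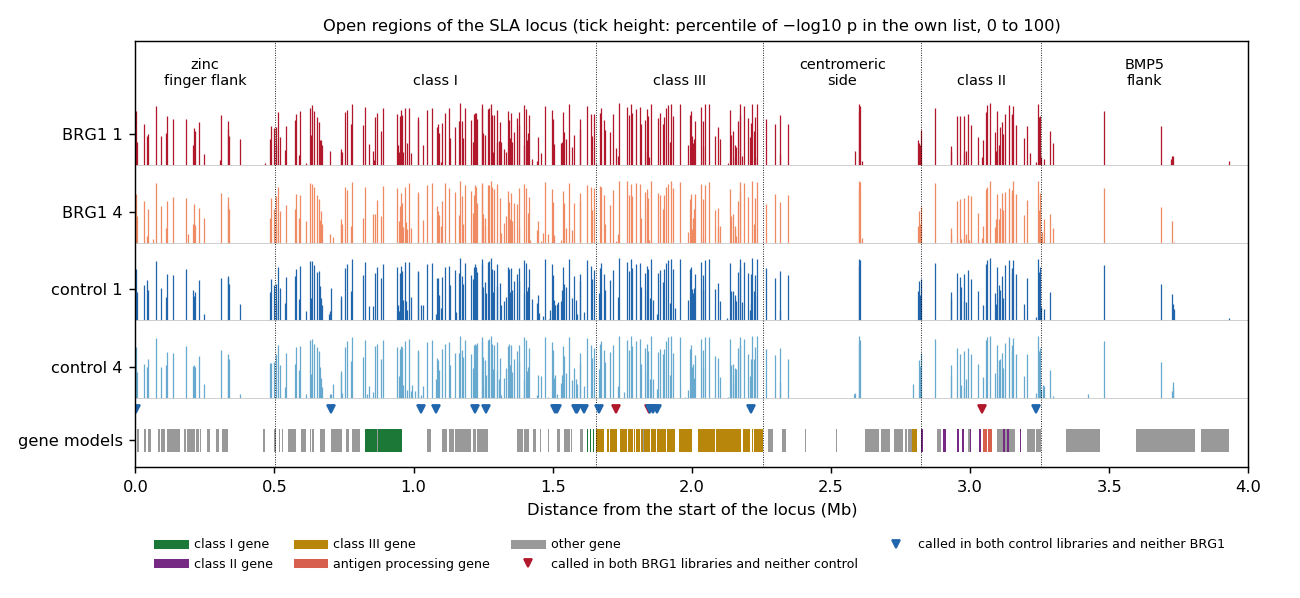
Peaks along the SLA complex in each library, BRG1 libraries above control libraries, with distance from the start of the locus in Mb on the horizontal axis, tick height giving the percentile of each peak within its own list, and gene models coloured by class below. Peaks crowd over the class I and class III segments (133 and 135 regions per Mb), long empty stretches mark the interval before class II (centromeric side) and the flank around BMP5, and triangles mark the 3 BRG1-only and 17 control-only regions.

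A gene end was taken as the 1 kb to either side of the first or last base of a RefSeq protein-coding gene model, since strand was not used here. Of the 341 regions, 115 (33.7%) touched a gene end, 88 (25.8%) lay elsewhere in a gene body and 138 (40.5%) were intergenic. In the rest of the series 13.4% of regions touched a gene end, 43.9% were in gene bodies and 42.7% were intergenic. The higher gene-end share stands beside the higher gene density given above, and the part of one in the other was not tested.

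Most regions of the complex were shared by BRG1 and control cells. All 4 libraries called 240 of the 341 (70.4%, against a background of 61.8% of regions in the whole series), and a single library called 41 (12.02%, background 16.4%). A further 34 were called in 2 libraries and 26 in 3. At gene ends 98 of 115 regions (85.2%) were called in all 4 libraries, against 53 of 88 (60.2%) in gene bodies and 89 of 138 (64.5%) between genes. The same shares in the rest of the series were 82.8%, 58.6% and 58.4%.

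The shared regions were also the strong ones. Each peak was ranked by its −log10 p within its own list, so that the strongest peak of a list has the highest percentile, and a region was given the mean percentile over the libraries that called it. The median of this mean was 6.08 for regions of a single library, 16.1 for those of 2, 29.4 for those of 3 and 73.6 for those of all 4. The single peaks in these regions had median widths of 214, 241.5, 259 and 594 bp, taken before merging, since merging more peaks can only widen a region. The ranges overlapped: regions of all 4 libraries spanned mean percentiles of 13.1 to 99.9 and those of 1 library 0.239 to 28.9. A region with no peak in a library was not called there at this depth, which does not show closed chromatin, and in bulk cells a smaller share of open cells and less access per cell cannot be told apart.

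**Figure D2:**
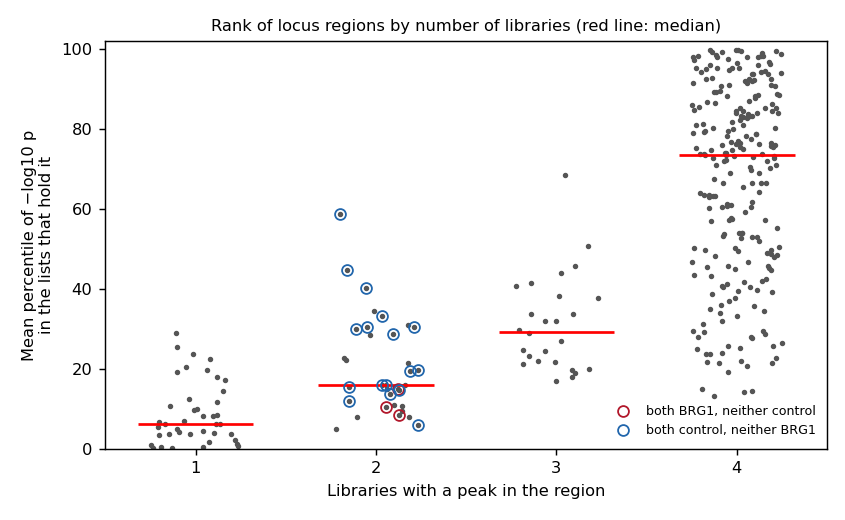
Mean percentile of each of the 341 regions against the number of libraries that called it, 1 point per region, a red line at each median, and circles around regions called in both libraries of 1 group and neither of the other. The median is 6.08 for regions of 1 library and 73.6 for regions of all 4, and no single-library region is above 28.9.

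No difference between BRG1 and control libraries in the number, length or position of peaks in the complex passed a test, and 2 libraries against 2 cannot reach below p = 0.33 in the two-sided exact permutation test used. The locus held 298 and 272 peaks in BRG1 1 and BRG1 4, against 312 and 308 in control 1 and control 4. The means were 285 ± 18.4 in BRG1 libraries and 310 ± 2.83 in control libraries (SD, n = 2 each), a ratio of 0.919 with exact p = 0.33. Both BRG1 counts lay below both control counts, as did the BRG1 list lengths, and with each list limited to its 90851 strongest peaks the locus counts were 285 and 272 in BRG1 libraries and 291 and 276 in control libraries, a ratio of 0.982. Peaks covered 168.3 and 192.4 kb in BRG1 1 and BRG1 4, against 178.1 and 170.6 kb in control 1 and control 4. The mean was 180.4 ± 17.01 kb in BRG1 and 174.4 ± 5.34 kb in control libraries (SD, n = 2 each), a ratio of 1.03 with exact permutation p = 1. BRG1 4 had the highest covered length and the fewest peaks, with a median locus peak of 661.5 bp, against 466 bp in BRG1 1, 471.5 bp in control 1 and 448.5 bp in control 4, and without BRG1 4 the ratio of covered length was 0.965.

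The share of locus peaks at a gene end was 36.2% and 37.9% in the BRG1 libraries, against 37.2% and 35.7% in the control libraries. The difference of 0.608 percentage points was smaller than the SD of either group (1.15 and 1.04; exact permutation p = 0.67). The median percentile of locus peaks in their own list was 64.7 and 64.6 in the BRG1 libraries, against 65.5 and 63.1 in the control libraries, and the groups overlapped (difference 0.312, exact permutation p = 1).

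For the 240 regions called in all 4 libraries the ranks were also compared region by region, a count made after values had been seen. Both BRG1 percentiles lay below both control percentiles in 63 regions (26.3%, background 34.0% of such regions in the whole series) and above them in 29 (12.1%, background 9.03%). The balance depended on list length, since the control lists are longer. With lists of equal length, 30 of 228 regions (13.2%, background 18.3%) had both BRG1 percentiles below and 58 (25.4%, background 19.5%) had both above. The median difference was -1.03 percentile points for BRG1 minus control with whole lists and 0.809 with lists of equal length. No direction can thus be given. The same holds for genes named below whose groups do not overlap, since their percentiles with lists of equal length are not given. Among separated regions with whole lists, the most negative difference was at a region inside CFB, 36 bp from its higher end and next to NELFE (chr7:24039960-24040487), with percentiles of 31.9 and 7.90 in the BRG1 libraries and 49.0 and 48.9 in the control libraries. The most positive was at SLA-5, described with the class I genes.

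The complex was divided by gene order into 6 segments, among which the regions were unevenly spread. The class III segment (chr7:23656623-24256281, from MCCD1 to NOTCH4) held 81 regions, 135 per Mb, and the class I segment (chr7:22501130-23656622, from UBD on) held 154, 133 per Mb. The class II segment (chr7:24825037-25255526, from SLA-DRA to RING1) held 41, 95.2 per Mb, and the flank of zinc finger genes on the low-coordinate side held 31, 61.9 per Mb. The interval between class III and class II (chr7:24256282-24825036, marked centromeric side in the plots) held 19, 33.4 per Mb, and the flank around BMP5 on the high-coordinate side held 15, 20.1 per Mb. Peaks of any library covered 9.72% of the class III segment, 9.32% of class I, 6.51% of class II, 4.02% of the zinc finger flank, 1.69% of the interval and 0.839% of the BMP5 flank.

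Class III stood out by position as well. Of its 81 regions, 42 touched a gene end, 29 were in gene bodies and 10 were intergenic, whereas 76 of the 154 class I regions and 18 of the 19 regions of the interval were intergenic. Gene ends were touched by 17 of 41 regions in class II and 13 of 31 in the zinc finger flank. Class III held 91.7 protein-coding genes per Mb, against 48.8 in class II, 46.7 in class I, 37.9 in the zinc finger flank and 17.6 in the interval. The part of gene density in these positions was not tested. Regions called in all 4 libraries made up 78.0% of those in class II, 74.2% in the zinc finger flank, 72.8% in class III, 71.4% in class I, 52.6% in the interval and 40.0% in the BMP5 flank.

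Between groups, the class I segment held 133 and 123 peaks in the BRG1 libraries, against 147 and 142 in the control libraries (128 ± 7.07 and 144.5 ± 3.54, SD, n = 2 each, ratio 0.886, exact permutation p = 0.33). The class III segment held 73 and 64 peaks in the BRG1 libraries, against 78 and 77 in the control libraries (ratio 0.884, exact permutation p = 0.33). In both segments the BRG1 counts lay below the control counts, as they did for the whole lists. The class II segment held 40 and 36 peaks in the BRG1 libraries, against 39 and 37 in the control libraries, a ratio of 1. The zinc finger flank and the interval also had a ratio of 1 and the BMP5 flank 1.05, with overlapping groups in each.

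**Figure D3:**
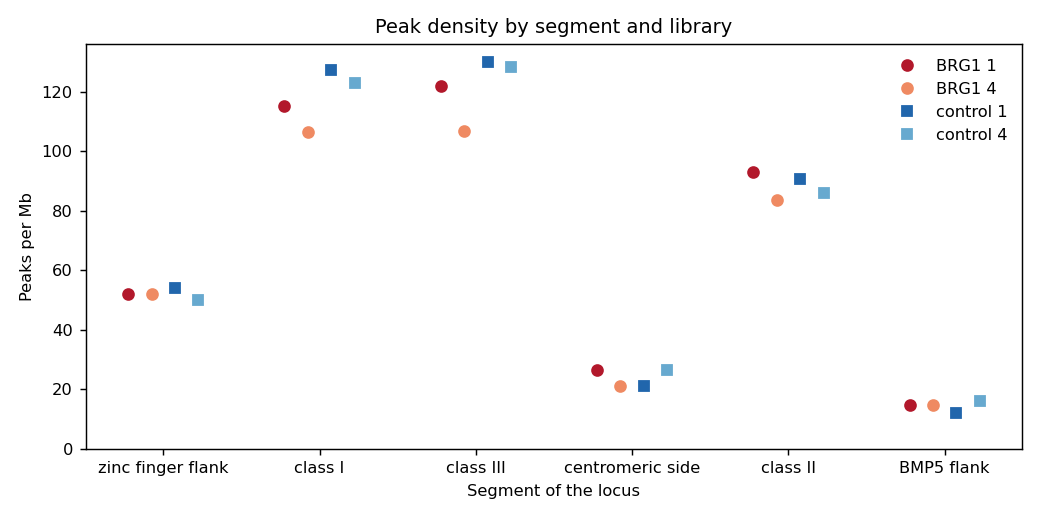
Peaks per Mb in each segment of the SLA complex, 1 point per library, BRG1 libraries left of control libraries. Class I and class III sit above 100 peaks per Mb in all 4 libraries, and the spread between segments is far wider than that between libraries of a segment.

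The class I genes were open in BRG1 and control cells alike. A peak touched a gene end of 7 of 8 class I protein-coding models in all 4 libraries, against a background of 68.2% of all 19550 protein-coding genes, and no class I gene had a gene-end peak in BRG1 libraries or control libraries only (backgrounds 0.199% and 0.532%). The exception was SLA-2. The median over the 7 open models of the mean percentile of the strongest gene-end peak was 86.3, against 89.0 over all 13334 genes open in all 4 libraries. These genes are related copies, and how alike their sequences are was not examined here. The handling of reads that map to several places is not given in the sources used here. A peak at one copy may therefore hold reads of another.

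SLA-1, SLA-2 and SLA-3 encode the classical class I heavy chains, which present peptides to cytotoxic T cells. The lower end of SLA-1 (model at 22824137 to 22920154) lay under the region chr7:22824069-22825437. Its percentile was 94.6 and 89.5 in BRG1 1 and BRG1 4 and 93.6 in both control libraries, with folds over background, the authors' own value for each peak, of 15.7 and 11.3 in the BRG1 libraries and 14.9 and 15.997 in the control libraries. The SLA-1 model is long and contains other models, one of which, LOC100513601, shares its higher end and carries SLA-1 among its synonyms. The lower end of LOC100513601 had a peak (region chr7:22888502-22890009) with percentiles of 92.3 and 92.0 in the BRG1 libraries and 91.3 and 93.1 in the control libraries.

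SLA-3 (22938211 to 22942735) had a peak over its lower end in the region chr7:22937857-22939343. The percentile was 83.3 and 88.0 in the BRG1 libraries and 85.0 and 82.2 in the control libraries, with overlapping groups. SLA-2 (22916747 to 22959405) had no peak within 1 kb of either end, yet 6 regions touched its model and 5 of them were called in all 4 libraries. The SLA-2 model contains that of SLA-3 and overlaps that of SLA-1, and the gene-end region of SLA-3 is one of the 5. The nearest of the 5 to the higher end of SLA-2, 2017 bp inside, was chr7:22956744-22957388. Its percentiles were 80.6 and 64.0 in the BRG1 libraries and 79.3 and 82.1 in the control libraries. With a gene end of 3 kb, SLA-2 was open in all 4 libraries and the class I count was 8 of 8, against a background of 77.5% of protein-coding genes at that width.

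SLA-6, SLA-7 and SLA-8 are the non-classical class I genes and form a cluster of their own beside class III. SLA-8 had the strongest class I gene end, in the region chr7:23621987-23623086, with percentiles of 96.0 and 92.9 in the BRG1 libraries and 96.4 and 96.1 in the control libraries. Its folds were 25.1 and 16.9 in the BRG1 libraries, against 25.5 and 24.9 in the control libraries, and the value of BRG1 4 was the low one. SLA-7 and SLA-6 had peaks over their higher ends. The percentile at SLA-7 was 83.1 and 90.3 in the BRG1 libraries and 86.6 and 85.0 in the control libraries. The percentile at SLA-6 was 83.6 and 88.6 in the BRG1 libraries, against 80.4 in both control libraries. Its 2 groups did not overlap, with BRG1 above (background 9.03% of shared regions in the whole series).

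SLA-5, coded as a protein-coding model here, was the weakest class I gene end called in all 4 libraries. Its percentile was 23.7 and 45.8 in the BRG1 libraries, against 23.2 and 8.45 in the control libraries. The difference of group means was the largest among the 29 shared regions with both BRG1 percentiles above, although BRG1 1 and control 1 differed little. The strongest peaks of BRG1 1 (22852325 to 22852568) and control 4 (22852672 to 22852895) did not overlap. With lists of equal length 3 of the 4 libraries called SLA-5, which left 6 class I genes open in all 4. Of the 3 class I pseudogenes, SLA-4 was open in all 4 libraries. Its strongest gene-end peaks lay in 2 different regions, so their percentiles are not set side by side. The region called in all 4 libraries, chr7:22974738-22975342, had percentiles of 36.1 and 22.2 in the BRG1 libraries and 15.7 and 12.7 in the control libraries. With lists of equal length 3 libraries called SLA-4 as well. At SLA-11 and MIC-1 no library had a gene-end peak, although with a gene end of 3 kb all 4 libraries called MIC-1. The background for pseudogenes was 9.62% open in all 4 libraries, and 19.2% at 3 kb.

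The stretch from SLA-1 to SLA-11 held 24 regions in 186.654 kb, of which 16 were called in all 4 libraries. The one with the highest mean percentile was not at a class I gene end but in the gap beyond SLA-2. This region, chr7:22981306-22982121, lay 21901 bp past SLA-2 and 4851 bp past the pseudogene SLA-4, and had percentiles of 92.5 and 95.7 in the BRG1 libraries and 94.5 and 95.2 in the control libraries. Another region of the gap, chr7:22967430-22968366, 8025 bp past SLA-2 and 6106 bp before SLA-4, had percentiles of 93.0 and 89.9 in the BRG1 libraries and 93.4 and 91.6 in the control libraries.

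**Figure D4:**
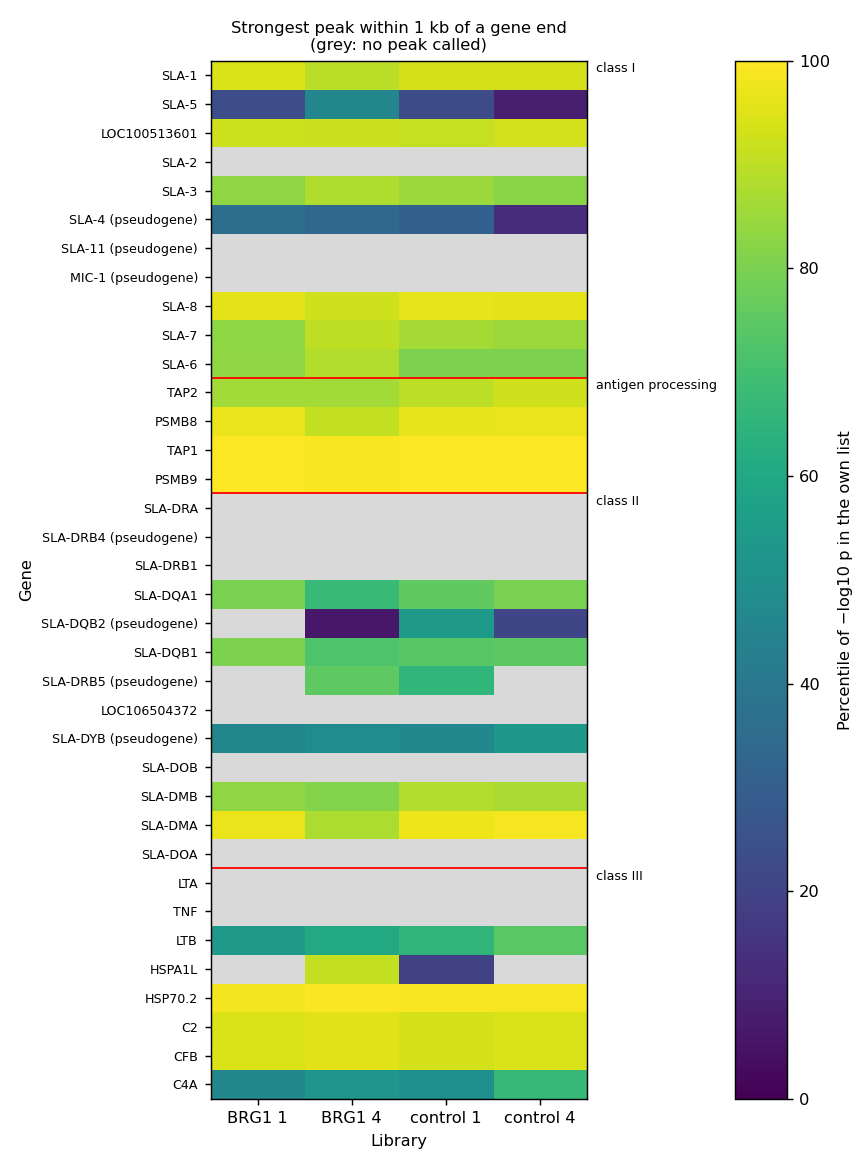
Percentile of the strongest gene-end peak at each class I, antigen processing and class II gene and at the class III genes named in the text, drawn as a colour scale with 1 column per library, BRG1 libraries left of control libraries. Grey marks no peak called, as at SLA-2, SLA-DRA, SLA-DRB1, SLA-DOA, SLA-DOB, TNF and LTA in all 4 columns, and no antigen processing gene is below 86.1.

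The 4 matched genes of antigen processing, which lie inside the class II segment, were all open in all 4 libraries (background 68.2%). Their median mean percentile was 97.4, against 89.0 over all genes open in all 4 libraries (quartiles 73.9 and 95.6). TAP1 and PSMB9 have the same peak, so the median counts that peak more than once. TAP1, a subunit of the peptide transporter, and PSMB9, an immunoproteasome subunit, lie end to end and shared 1 region at chr7:25071275-25072665. Its percentile was 99.9 and 99.0 in the BRG1 libraries and 99.7 and 99.9 in the control libraries, and its folds were 19.5 and 14.7 in the BRG1 libraries and 18.9 and 19.9 in the control libraries. It was among the 5 highest regions of the whole complex. PSMB8, another immunoproteasome subunit, had percentiles of 96.9 and 90.7 in the BRG1 libraries and 96.3 and 97.1 in the control libraries. TAP2, the other transporter subunit, had percentiles of 86.3 and 86.1 in the BRG1 libraries, below the 89.96 and 92.9 of the control libraries.

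The class II genes were divided. Of 9 protein-coding class II models, 4 had a peak at a gene end in each of the 4 libraries and 5 had none in any (background 68.2% and 25.8%), and none differed between BRG1 and control libraries. SLA-DMA and SLA-DMB encode the chains of the DM molecule that loads peptides onto class II. SLA-DMA was the strongest class II gene end, with percentiles of 97.0 and 87.8 in the BRG1 libraries and 97.4 and 98.4 in the control libraries. SLA-DMB had percentiles of 83.6 and 81.5 in the BRG1 libraries, below the 88.6 and 87.5 of the control libraries. Both models lie inside that of BRD2, a bromodomain gene, so these peaks cannot be assigned to DM alone.

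SLA-DQA1 and SLA-DQB1 encode the chains of a classical class II molecule. SLA-DQA1 had percentiles of 79.99 and 67.5 in the BRG1 libraries and 75.6 and 79.99 in the control libraries, in the region chr7:24952966-24953680. SLA-DQB1 had percentiles of 80.3 and 72.5 in the BRG1 libraries and 73.8 and 74.8 in the control libraries, in the region chr7:24976986-24977526. The groups overlapped at both genes.

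At the protein-coding DR and DO models no library had a gene-end peak. SLA-DRA, the alpha chain of DR molecules, had its nearest region 2069 bp below its lower end, at chr7:24822552-24822968. That region was called in all 4 libraries, with percentiles of 57.6 and 57.9 in the BRG1 libraries, below the 65.6 and 72.6 of the control libraries. SLA-DRB1, a DR beta chain, lay 16076 bp from the nearest shared region, and SLA-DOA, a chain of the DO molecule that restrains DM, was 10193 bp away. SLA-DOB, its partner, was 1709 bp away, and LOC106504372, a further DR beta model by its synonyms, was 2216 bp away. The LOC106504372 model is only 283 bp long and lies inside that of the pseudogene SLA-DRB5. With a gene end of 3 kb the class II count was 7 of 9, with SLA-DRA, SLA-DOB and LOC106504372 added, and the share over all protein-coding genes was 77.5%.

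The 128.435 kb from the start of SLA-DRA to SLA-DQA1 held 4 regions, all called in all 4 libraries. The strongest was chr7:24872701-24873754, with percentiles of 93.0 and 96.5 in the BRG1 libraries and 92.8 and 93.8 in the control libraries. Of the 4 class II pseudogenes, SLA-DYB was open in all 4 libraries and SLA-DRB4 in none. SLA-DQB2 was called in 3, with percentiles of 6.5998 in BRG1 4, 53.8 in control 1 and 20.8 in control 4. SLA-DRB5 was called in BRG1 4 and control 1 only, but the region there (chr7:25002755-25003513) was called in all 4 libraries and its start lies 890 bp from the gene end, so the call turned on where each peak's edge fell.

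The activator of class II genes, CIITA, lies outside the complex. It was 1 of the 10 listed markers of antigen-presenting and lymphoid cells. It had a gene-end peak in both BRG1 libraries and in neither control library, a call shared by 0.199% of protein-coding genes. The rank of these peaks and the call with lists of equal length are not given here, so no direction is drawn from it. CD74, the class II invariant chain, had none in any library, and no class II gene in the complex had a call that followed the CIITA pattern.

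**Figure D5:**
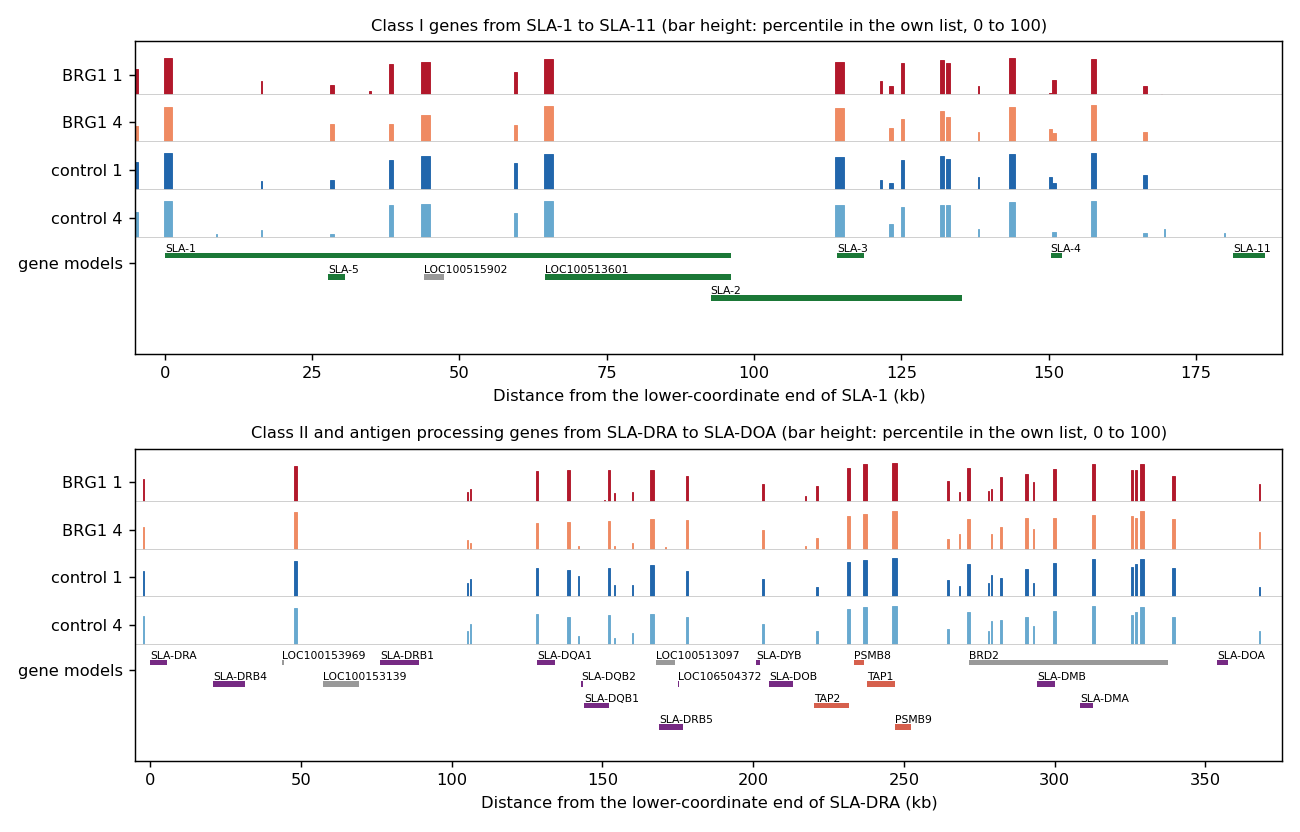
Peaks of each library from SLA-1 to SLA-11 (upper panel) and from SLA-DRA to SLA-DOA (lower panel), with gene models below, distance in kb on the horizontal axis and bar height giving the percentile of the peak in its own list, BRG1 libraries above control libraries. All 4 libraries show peaks at SLA-1, SLA-3 and the pair TAP1 and PSMB9, and none at the ends of SLA-DRA or SLA-DRB1.

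Class III gene ends ranked high in every library. Of its 55 matched genes, 40 (72.7%, background 68.2%) were open at a gene end in all 4 libraries, 11 had no such peak in any (background 25.8%) and 4 had calls in some (background 5.96%). With a 3 kb gene end, 53 of the 55 were open in all 4 libraries (background 77.5%). These included TNF and HSPA1L but not LTA. At 1 kb the median mean percentile of the 40 was 93.8, and 25 of the 40 were at 90 or above. Over all genes open in all 4 libraries the median was 89.0 (quartiles 73.9 and 95.6). Some neighbouring genes share a peak here and some genes have peaks at both ends: the gene ends of the 40 touched 40 distinct regions, of which 36 were called in all 4 libraries.

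In the cytokine cluster only LTB had a gene-end call. TNF and LTA, which encode tumour necrosis factor and lymphotoxin alpha, had no such peak, with the nearest region called in all 4 libraries 2016 bp and 6129 bp away. LTB, which encodes lymphotoxin beta, had a gene-end peak in the region chr7:23704409-23706183, shared with LST1. The strongest peak there covered the lower end of LTB in BRG1 4, and began inside the model in BRG1 1, control 1 and control 4. Its percentile was 54.0 and 60.8 in the BRG1 libraries, below the 65.5 and 74.2 of the control libraries.

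Complement genes were open in all 4 libraries. C2 and CFB, components of the classical and alternative pathways, lie end to end and shared a peak with percentiles of 94.5 and 95.4 in the BRG1 libraries and 93.7 and 94.4 in the control libraries. Its folds were 20.6 and 17.4 in the BRG1 libraries, against 18.7 and 19.8 in the control libraries. C4A, of the classical pathway, was weaker, at 46.8 and 52.3 in the BRG1 libraries and 50.1 and 67.2 in the control libraries.

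Of the heat shock genes, HSP70.2, whose synonyms are HSPA1A and HSPA1B and which encodes an inducible chaperone, had percentiles of 98.1 and 99.4 in the BRG1 libraries and 98.9 and 98.7 in the control libraries. HSPA1L, whose model spans HSP70.2, was called only in BRG1 4 and control 1, by different peaks at opposite ends of the model. The peak of BRG1 4 (23907811 to 23909012), near the lower end, was at 90.7. The peak of control 1 (23938287 to 23938499), near the higher end, was at 19.3. A region called in all 4 libraries lay 948 bp from the lower end, so the call in BRG1 4 turned on a peak edge. EHMT2, a histone H3 lysine methyltransferase, was open in all 4 libraries, at 80.7 and 71.0 in the BRG1 libraries and 82.1 and 79.0 in the control libraries.

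None of the 5 regions with the highest mean percentile touched an SLA gene end. The region chr7:23739197-23740636, 1666 bp from the lower end of PRRC2A, had percentiles of 99.7 and 99.9 in the BRG1 libraries and 99.9 in both control libraries. It lay outside the 1 kb window, and the gene-end call at PRRC2A was in control 4 only. The region over the lower end of MRPS18B, a mitochondrial ribosomal protein gene whose model overlaps that of PPP1R10, had percentiles of 99.8 and 99.97 in the BRG1 libraries and 99.9 and 99.8 in the control libraries. RNF5, an E3 ubiquitin ligase gene, was at 99.5 and 99.9 in the BRG1 libraries and 99.8 and 99.9 in the control libraries. The last of the 5, after the shared region of TAP1 and PSMB9, was chr7:23276834-23277718, 9929 bp past IER3, an immediate early gene, at 99.6 and 99.3 in the BRG1 libraries and 99.8 and 99.6 in the control libraries.

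The widest region, of 2813 bp, covered the whole IER3 model and the higher end of FLOT1, followed by 2112 bp at GNL1 and PRR3, 2095 bp at RNF39, 2062 bp at LY6G5C and 1775 bp at LTB and LST1. The widths at LY6G5C and at LTB and LST1 were each that of a single peak of BRG1 4, the library with the broadest peaks. The gap of 104.452 kb between IER3 and DDR1, a collagen receptor gene, held 20 regions with no protein-coding gene model in it. Of these, 17 were called in all 4 libraries and 8 of the 17 had a mean percentile of 80 or above. POU5F1, the pluripotency factor OCT4, was without a gene-end peak in each library, and the nearest region called in all 4 libraries lay inside its model, 1295 bp from an end.

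Regions called in 1 group only were few and weak. Both BRG1 libraries and neither control library called 3 of the 341 regions (0.880%, background 0.741%), and both control libraries and neither BRG1 library called 17 (4.99%, background 4.41%). These shares were near their backgrounds. The BRG1-only regions lay in the bodies of AIF1, a macrophage actin-binding protein gene (chr7:23726580-23726924), and CLIC1, a chloride channel gene (chr7:23847306-23847743), and 2463 bp below TAP2 (chr7:25042378-25042622). Their percentiles in BRG1 1 and BRG1 4 were 27.4 and 2.49 at AIF1, 13.3 and 3.62 at CLIC1 and 13.3 and 7.75 near TAP2. None touched a gene end, and the nearest region called in all 4 libraries was 3169 to 6405 bp away.

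The 17 control-only regions had mean percentiles of 6.06 to 58.9 with a median of 19.7 and widths of 209 to 519 bp. Of these, 10 were in the class I segment, 5 in class III, 1 in class II and 1 in the zinc finger flank. The nearest genes were ZNF389, TRIM40, TRIM39, RPP21, PPP1R18, FLOT1, C7H6orf15 with 2 regions, POU5F1, LOC100153163 with 2 regions, DDX39B, CLIC1, MSH5 with 2 regions, AGPAT1 and RXRB. The strongest was in the body of PPP1R18 (chr7:23219719-23219979), at percentiles of 61.8 in control 1 and 56.0 in control 4. Gene ends were touched by 2, at MSH5, a meiotic DNA mismatch repair gene, and between COL11A2 and RXRB, a retinoid X receptor gene.

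The 2 counts depended on list length and on single libraries. With lists of equal length 6 regions were BRG1-only and 7 control-only, and all 3 of the original BRG1-only regions and 7 of the 17 control-only regions remained. Leaving out a library loosens the call, since the group is then a single library. BRG1-only regions then numbered 11 without BRG1 1, 17 without BRG1 4, 9 without control 1 and 6 without control 4. Control-only regions numbered 33 without BRG1 1, 18 without BRG1 4, 29 without control 1 and 25 without control 4.

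The interval between class III and class II held the longest gap of the complex, 237.4 kb without a region (chr7:24345745-24583163). None of the 10 protein-coding models in the interval, which include BTNL2, a butyrophilin-like gene, had a gene-end peak in a library. A further gap of 181.3 kb lay in the same interval (chr7:24611475-24792769). The other 3 of the 5 longest gaps, of 204.9, 195.6 and 124.3 kb, were in the BMP5 flank, and the median of all 340 gaps was 5.40 kb.

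A cluster of 3 strong regions stood between the 2 gaps of the interval, 19253 bp or more from the nearest end of a gene model. The region chr7:24598751-24599883 had percentiles of 99.0 and 99.7 in the BRG1 libraries and 99.0 and 98.8 in the control libraries. Its pileup, the number of fragments the caller stacked at the summit, was 581 and 641 in the BRG1 libraries and 688 and 637 in the control libraries, but its fold was only 8.08 and 8.82 in the BRG1 libraries and 7.65 and 7.89 in the control libraries. The caller's background there was 71.0 and 71.8 fragments in the BRG1 libraries and 89.1 and 79.9 in the control libraries, against locus medians of 5.33 and 5.20 in the BRG1 libraries and 5.90 and 5.84 in the control libraries. The 2 neighbours, chr7:24600811-24601226 and chr7:24602738-24603594, had backgrounds of 74.1 to 96.4. A weak region among them, chr7:24600293-24600542, was called in control 4 only, with a background of 82.9, and these 4 had the highest backgrounds of the complex by their mean over the libraries that called them.

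In the BMP5 flank no gene was open in all 4 libraries. BMP5, a bone morphogenetic protein gene, HMGCLL1 and GFRAL had none in any library, and HCRTR2 was called in BRG1 1 and control 1 only. The flank still held a strong region 12475 bp past BMP5 (chr7:25480905-25481731), with percentiles of 87.6 and 88.2 in the BRG1 libraries and 88.3 and 90.6 in the control libraries. In the zinc finger flank 11 of 19 genes were open in all 4 libraries and 7 in none (backgrounds 68.2% and 25.8%). It also held 15 tRNA genes, of which 5 were open in all 4 libraries (background 61.2% of tRNA genes), 8 in none and 2 in some.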

How the data were processed

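ATAC-seq was done on 2 BRG1 and 2 control libraries of porcine fetal fibroblasts, and the authors deposited a narrowPeak file for each library. The submitters' processing notes name the build Sscrofa11.1 and the tools MACS2, BWA, Bowtie, SAMtools and FastQC, without versions or roles. Each deposited line gives an interval, a score, a fold enrichment over background, −log10 p, −log10 q and a summit offset, as the authors' caller wrote them, and the lowest −log10 q was 1.31 to 1.35 per the files' values. Peaks were called per library. The sources used here do not give read filters, the handling of reads that map to several places or the Tn5 shift.

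From these lists, overlapping peaks (1 bp or more) were merged into regions, and peaks were ranked by −log10 p within their list, because scores are comparable only within a list. The pileup and the caller's background were solved from the fold and p-value for 100% of peaks, to within 0.0001 of the −log10 p. Gene models came from the RefSeq table of the same build, which was used without strand or exons. Of the genes listed, 11 of 16 class I, 13 of 18 class II, 55 of 62 class III and 4 of 5 antigen processing symbols were matched. Groups were compared with exact permutation tests over libraries (threshold p of 0.05), and the locus with the rest by an exact sign-flip test. Scripts were tested on simulated data and used Python 3.11.15, NumPy 2.4.6, pandas 2.3.3 and SciPy 1.17.1.

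The members and lists were chosen with earlier results of these data known. Genes named were those of the class I, class II and antigen processing lists, the cytokine, complement and heat shock genes of class III, POU5F1, and the genes nearest to group-only regions, to the 5 highest and 5 widest regions and to the 5 longest gaps. Other genes and regions (EHMT2, the regions past SLA-2 and BMP5, those from IER3 to DDR1 and the cluster in the interval) were chosen after their values were seen. Sequences were not used here and the promoter motif search was not run. Alternatives were stricter peaks (−log10 q of at least 5), lists of equal length, merging at 50% of the shorter peak, a 3 kb gene end, the span from the first to the last SLA gene, each library left out and a replicate block.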

Additional observations from a re-analysis of the deposited data

How the results depend on the processing

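For the planned comparisons, 71 alternative values kept their direction or stayed close to the reported one, 9 moved and 5 reversed. For the calls at single genes, 98 stayed and 13 moved. Limited to lists of equal length, the gene-end share of locus peaks reversed to -0.0180 percentage points for BRG1 minus control. BRG1-only regions then numbered 6 and control-only regions 7. The median percentile difference of shared regions also reversed, to 0.809 points. It was chosen after seeing the data and is not in these counts. With a 3 kb gene end, 7 class II genes were open in all 4 libraries.

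With 1 library left out in turn, the ratio of covered length ranged from 0.965 (without BRG1 4, reversed) to 1.10. The gene-end difference ranged from -0.205 (without BRG1 4; it also reversed without control 4, at -0.125) to 1.42 percentage points. The percentile difference ranged from -0.918 (without control 4, reversed) to 1.54. The ratio of peak counts ranged from 0.877 to 0.961 and the density ratio from 1.82 to 1.85. BRG1-only regions ranged from 6 to 17 and control-only regions from 18 to 33.

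The labels do not say whether the numbers 1 and 4 pair the libraries. Same-numbered deviations correlated at -0.0100 over all regions and 0.0843 in the locus, which cannot settle it with 2 libraries a group. With a replicate block the ratio of peak counts was 0.918 (exact sign-flip p = 0.5, the smallest 2 pairs allow) and that of covered length 1.03 (exact p = 1), and the gene-end and percentile differences were 0.608 and 0.312 (exact p = 1 each).

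Limits: 2 libraries a group allow no p below the threshold, absolute depth is unknown, and a missing peak means only that none was called. Whether reads of class I copies were told apart is not known, and gene ends include both starts and stops.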

Other observations

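Among the tRNA genes of the zinc finger flank, a tRNA-Ser gene (TRNAS-GCU) at 22072896 was the strongest, with percentiles of 95.2 and 97.0 in the BRG1 libraries and 95.8 and 96.2 in the control libraries. A tRNA-Arg gene (TRNAR-UCG) at 22307124 was at 80.5 and 80.8 in the BRG1 libraries, above the 67.3 and 76.0 of the control libraries, while the run of 3 tRNA genes from 22430410 to 22436850 were without a gene-end peak. Single copies of a tRNA family cannot be told apart where reads map to several of them.

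The TRIM genes of the class I segment, which encode tripartite-motif E3 ligases, were divided. TRIM39 was open in all 4 libraries, with percentiles of 89.96 and 93.3 in the BRG1 libraries and 90.5 and 90.4 in the control libraries. TRIM26, TRIM10 and TRIM40 had none in the 4 libraries. TRIM15 was called in both BRG1 libraries and control 4, and TRIM31 in control 1 only, although a region called in all 4 libraries lay 908 bp from the end of TRIM31.

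Overlap of the bases under peaks within the complex, as the Jaccard index of each pair of libraries, was 0.720 between BRG1 1 and BRG1 4 and 0.792 between the control libraries. Between groups it was 0.777 and 0.764 for BRG1 1 with control 1 and control 4, and 0.724 and 0.702 for BRG1 4 with the same libraries. By bases, BRG1 1 thus overlapped both control libraries more than it overlapped BRG1 4. By regions this did not hold: BRG1 1 shared 82.9% of regions with BRG1 4, 84.2% with control 1 and 81.1% with control 4. BRG1 4 had the broadest peaks, and their part in the Jaccard index was not tested.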
